A study of Mus musculus with 4 samples.

Results

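The genes described here are the muscarinic acetylcholine receptors Chrm1 to Chrm5 and 5 adrenergic receptors, Adra1a, Adra1b, Adra1d, Adra2a and Adrb1. They are a set of names with no threshold on their values, drawn up with earlier results of these data known, and all 10 were present among the 12700 genes of the count table. RNA was sequenced in 4 libraries from C57BL/6 mice aged 9 months, with 1 library per group. CxH and CxWT are the cerebral cortex (Cx) of Ids-ko (genotype Ids-/-) and wild-type mice. MH and MWT are the M area of the same genotypes, which joins midbrain, diencephalon and hippocampus and, by the study's dissection, the striatum. Ids encodes the lysosomal enzyme iduronate 2-sulfatase, and its loss models mucopolysaccharidosis type II (MPS II) in every cell of the mouse, not in 1 cell type. The wild-type mice were littermates, and both areas were dissected from each brain, so the Cx and M libraries of a genotype are not independent samples of animals. RNA was pooled before sequencing, so no library stands for 1 animal and no spread between animals can be read from these data.

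Muscarinic receptors answer acetylcholine and adrenergic receptors answer noradrenaline and adrenaline, and both families are G protein-coupled receptors that set the excitability of neurons over seconds rather than milliseconds. Chrm1, Chrm3, Chrm5 and the alpha-1 receptors couple to Gq, which drives phospholipase C, calcium release and closure of the M-current potassium channels. Chrm2, Chrm4 and Adra2a couple to Gi and Go, which lower cyclic AMP and open inward rectifier potassium channels, while Adrb1 couples to Gs and raises cyclic AMP. In the forebrain Chrm1 is known as the main muscarinic receptor of cortical and hippocampal pyramidal cells, Chrm4 as that of striatal projection neurons, and Chrm2 and Adra2a also sit on the endings that release the transmitter.

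Start-site windows were taken from RefSeq on the build GRCm38.p6, a later build than that of the counts, and 7 of the 10 genes matched, with 8 windows. Chrm1, Adra1a and Adra1d had none. A muscarinic and an adrenergic gene of each direction are shown, Chrm4 and Adrb1, which were called higher in CxH and MH, and Chrm2, called lower in both, and Adra2a, called lower in CxH only. Each is the 250 bases before the start site, 5′ to 3′ on the strand of the gene, with every CG dinucleotide in capitals.
Chrm4, chr2:91921939-91922188, plus strand: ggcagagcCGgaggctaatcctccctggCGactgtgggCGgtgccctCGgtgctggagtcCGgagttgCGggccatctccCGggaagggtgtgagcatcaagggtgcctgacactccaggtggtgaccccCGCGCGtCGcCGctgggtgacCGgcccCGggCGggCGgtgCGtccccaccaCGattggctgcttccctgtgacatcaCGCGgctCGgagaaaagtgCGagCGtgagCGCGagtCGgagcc
Adrb1, chr19:56721867-56722116, plus strand: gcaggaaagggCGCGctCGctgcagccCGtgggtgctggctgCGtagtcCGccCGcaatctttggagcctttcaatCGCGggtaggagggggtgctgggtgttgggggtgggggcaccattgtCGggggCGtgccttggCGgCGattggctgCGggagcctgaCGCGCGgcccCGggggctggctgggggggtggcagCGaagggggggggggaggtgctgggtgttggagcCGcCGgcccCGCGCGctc
Chrm2, chr6:36387834-36388083, plus strand: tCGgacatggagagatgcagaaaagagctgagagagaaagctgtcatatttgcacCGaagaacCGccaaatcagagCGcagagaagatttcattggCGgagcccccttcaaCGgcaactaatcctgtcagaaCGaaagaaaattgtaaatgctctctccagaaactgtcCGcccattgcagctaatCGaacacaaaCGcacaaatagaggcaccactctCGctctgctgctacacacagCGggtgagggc
Adra2a, chr19:54045009-54045258, plus strand: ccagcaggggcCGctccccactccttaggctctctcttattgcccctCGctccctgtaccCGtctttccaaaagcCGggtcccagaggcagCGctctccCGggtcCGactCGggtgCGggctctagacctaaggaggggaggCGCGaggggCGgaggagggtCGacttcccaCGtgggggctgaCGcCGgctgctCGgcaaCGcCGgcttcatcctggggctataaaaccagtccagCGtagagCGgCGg
These windows hold 26 CG in Chrm4, 24 in Adrb1, 12 in Chrm2 and 22 in Adra2a, against a median of 6 over 32851 windows of 27025 genes. GC content was 70%, 74%, 50% and 67.6% in the same order, against a median of 52.4%. Chrm5, which was also lower in CxH and MH, had 2 CG and 37.6% GC, and Chrm3, which was higher, had 10 CG and 61.2% GC. The gene model of Chrm5 used for lengths below holds 1 exon near coding length, and whether its window lies at the true start site was not tested. Adra1b had a window with 3 CG and another with 22. The letters GGGCGG, searched on both strands, occurred 3 times in Chrm4 and once in Adrb1, Chrm2, Adra2a and the second Adra1b window, and were present in 32.7% of all windows. TATAAA was found in Adra2a alone of these windows and in 12.4% of all, and the cyclic AMP response element TGACGTCA in none of the 8 windows and in 1.55% of all. Adra2a and Adrb1, which differed in direction, were close in CG count.

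Levels are reads per 1000000 aligned reads (RPM), and 4 values given together stand in the order CxH, CxWT, MH, MWT. Each ± is the standard error from counting on the log2 scale, and intervals and errors cover counting error only. The libraries held between 16380080 (MWT) and 23475080 (CxH) reads on genes, and a floor of 3 reads lay between 0.0779 and 0.104 RPM. A gene was called different between libraries when the likelihood ratio of its Poisson counts passed a p of 0.05 and the ratio reached 0.7 in size on the log2 scale. Such a test compares 2 libraries, not genotypes or areas, and none of the differences has a replicate check. Ids, the disrupted gene, had 135 RPM in CxH and 354 in CxWT, but 368 in the library labelled MH and 155 in the library labelled MWT, so the M labels go against the targeted gene. Markers of brain area did not follow the area labels either. Summed over 12 markers of cortical excitatory neurons the level was 2495 RPM in CxH and 2194 in MH, but 479 in CxWT and 379 in MWT. The 8 midbrain markers present summed to 9.66 and 8.94 RPM in CxH and MH and to 101.0 and 86.0 in CxWT and MWT, with En1, Gata3 and Sox14 at or under 3 reads in CxH and En1 and Sox14 in MH. The 10 markers of thalamus and hypothalamus summed to 49.5 and 65.5 RPM in CxH and MH and to 536 and 477 in CxWT and MWT, with Hcrt, Oxt and Avp at or under 3 reads in CxH and Hcrt in MH. The 9 striatal markers summed to 1204, 470, 1024 and 449. Hippocampal markers summed to 129.9, 116, 131 and 87.3 RPM, those of astrocytes to 2939, 1968, 2435 and 2525, of microglia to 391, 207, 252 and 313, of oligodendrocytes to 4526, 8667, 4694 and 6891, and of endothelium to 157, 118, 121 and 143. Members of a list did not all move together. In CxH over CxWT the log2 ratio was -0.80 for Aqp4 and 1.11 for Gfap, both astrocyte markers. Of the hippocampal markers Prox1 had -1.07 and Wfs1 0.51 there. In MH over MWT Aqp4 had -1.30, Gfap -1.13 and Slc1a2 0.43. Slc1a2 alone held 1533 RPM of the astrocyte sum in CxH. The part of these shifts in the receptor levels was not tested, and libraries are named below by their labels.

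Between the libraries labelled CxH and CxWT the 10 receptor genes split. Chrm1, Chrm3, Chrm4, Adra1d and Adrb1 were called higher in CxH, where 9.46% of all genes were called higher, and Chrm2, Chrm5 and Adra2a were called lower, where 11.5% of all genes were called lower. Adra1a and Adra1b were not called. In the M libraries the same 5 were called higher in MH, with 12.3% of all genes higher, and Chrm2 and Chrm5 lower, with 12.7% of all genes lower, while Adra2a, Adra1a and Adra1b were not called. Regardless of sign, the median log2 ratio was 1.49 over the 10 genes and 0.345 over all genes in Cx, and 1.24 and 0.396 in M. The signed medians were 0.51 in Cx and 0.49 in M, against -0.093 and -0.066 over all genes. In whole tissue, fewer cells of a type and less RNA per cell cannot be told apart.

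**Figure D1:**
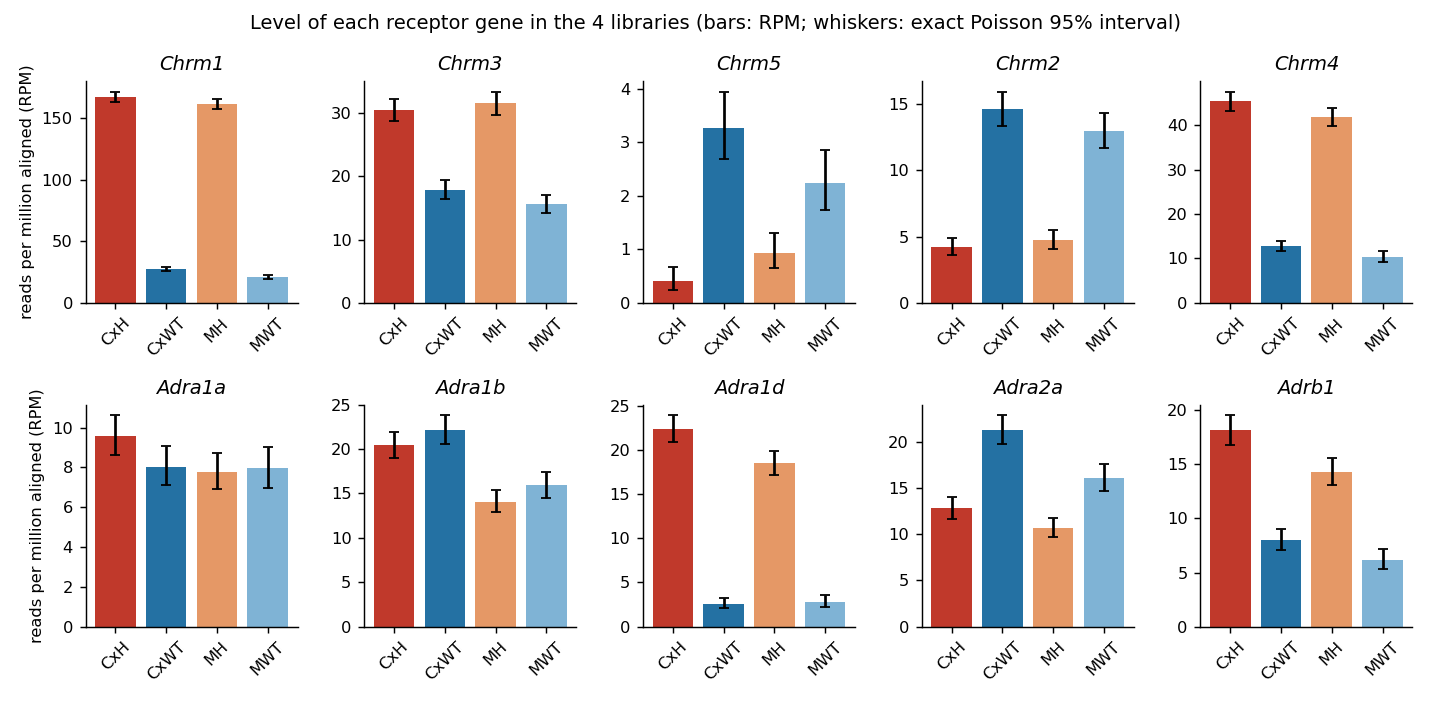
Level of each receptor gene in the 4 libraries, in RPM on an axis of its own that starts at 0; bars are single libraries and whiskers exact Poisson 95% intervals. CxH and MH stand above CxWT and MWT for Chrm1, Chrm3, Chrm4, Adra1d and Adrb1 and below them for Chrm2, Chrm5 and Adra2a, and Adra1a and Adra1b show neither order.

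Chrm1, the Gq-coupled M1 receptor (chr19:8738495-8758077, plus strand, mm9, as are the positions that follow), had the most reads of the family. CxH held 6455 reads of it and CxWT 930 (168 and 27.7 RPM), and MH held 6052 and MWT 608 (162 and 21.0 RPM). CxH and MH were high, CxWT and MWT low, and the intervals of the high and low libraries lay far apart. In Cx this made a log2 ratio of 2.60 ± 0.051, or 6.06-fold, and in M one of 2.95 ± 0.061, or 7.71-fold. Of 12700 genes these were the 50th and 47th highest ratios. By reads, Chrm1 ranked 663rd of all genes in both CxH and MH, but 5217th in CxWT and 6068th in MWT.

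Chrm3, the Gq-coupled M3 receptor of neurons and smooth muscle (chr13:9876381-9878329, minus strand), moved the same way by less. CxH and MH had 30.4 and 31.5 RPM (1172 and 1177 reads), and CxWT and MWT had 17.8 and 15.5 RPM (600 and 450 reads). The CxH and MH intervals overlapped, as did those of CxWT and MWT, and the pairs did not overlap each other. In Cx its log2 ratio was 0.77 ± 0.072 and in M 1.02 ± 0.080, and the Cx ratio, close above the threshold, lost its call with an assumed variation of 0.2 between pools.

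Chrm5, the M5 receptor known from midbrain dopamine neurons (chr2:112319229-112320974, minus strand), had few reads in every library. It had 16, 110, 35 and 65 reads, or 0.416, 3.27, 0.937 and 2.25 RPM. CxWT and MWT were both above CxH and MH with no overlap of intervals, with ratios on the log2 scale of -2.98 ± 0.39 in Cx, the 65th lowest of all genes, and -1.26 ± 0.30 in M. With a filter of 100 reads the M call was lost. Of the 8 midbrain markers 7, Slc6a3 and Otx2 among them, were called lower in both comparisons, and Gata2 was not called (-0.55 and 0.035).

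Among the Gi-coupled receptors, Chrm4 and Chrm2 went opposite ways. Chrm4, the M4 receptor (chr2:91762346-91769986, plus strand), had 1748, 429, 1564 and 301 reads, or 45.4, 12.8, 41.9 and 10.4 RPM. It was 3.56-fold higher in CxH than in CxWT (log2 ratio 1.83 ± 0.078) and 4.03-fold higher in MH than in MWT (2.01 ± 0.091). Chrm2, the M2 autoreceptor of cholinergic endings (chr6:36338084-36478414, plus strand), had 162, 491, 178 and 375 reads, or 4.21, 14.6, 4.76 and 13.0 RPM. Here CxWT and MWT were the high libraries, with log2 ratios at -1.80 ± 0.13 (Cx) and -1.44 ± 0.13 (M). Markers of striatum, where Chrm4 is abundant, were called higher for 8 of 9 genes in both comparisons, and those of cholinergic neurons, which carry Chrm2, summed to 10.6, 34.4, 10.5 and 38.6 RPM.

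The 3 alpha-1 receptors, all Gq-coupled, did not move together. Adra1d (chr2:131371586-131388021, minus strand) had 861, 87, 690 and 82 reads, or 22.4, 2.59, 18.5 and 2.83 RPM. The high values in CxH and MH gave log2 ratios of 3.11 ± 0.16 and 2.70 ± 0.17, the 18th highest of all genes in Cx and the 58th in M. With the GC and length correction they were 2.76 and 1.92, both still called. Adra1b (chr11:43588108-43714712, minus strand) had 20.4, 22.2, 14.1 and 15.9 RPM, from 787, 745, 526 and 461 reads, and was not called in either comparison (-0.12 ± 0.074 and -0.18 ± 0.092). What set Adra1b apart was its order over libraries, since both Cx libraries lay above both M libraries with no overlap of intervals. Adra1a (chr14:67254088-67390005, plus strand) had 9.58, 8.03, 7.79 and 7.95 RPM from 369, 270, 291 and 230 reads, and all 4 intervals overlapped. On the log2 scale its ratio was 0.25 ± 0.12 in Cx and -0.029 ± 0.13 in M, neither called, and the sign in M turned with TMM factors (0.030).

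Adra2a, the alpha-2A receptor that serves noradrenergic cells as autoreceptor (chr19:54119672-54123472, plus strand), was the third gene with lower values in CxH and MH. It had 12.8, 21.3, 10.7 and 16.1 RPM, from 493, 715, 400 and 466 reads. The log2 ratio of -0.73 ± 0.084 was called in Cx, just past the threshold, and that of -0.59 ± 0.098 in M was not. The difference between these ratios was -0.14 ± 0.13, so a called and an uncalled value here are not shown to differ. With TMM factors the Cx ratio was -0.64 and no longer called, and with a GC and length correction the M ratio was -1.14 and called.

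Adrb1, the Gs-coupled beta-1 receptor (chr19:56796862-56799352, plus strand), had 699, 270, 535 and 179 reads, or 18.2, 8.03, 14.3 and 6.18 RPM. The high libraries were again CxH and MH. Its log2 ratios, 1.18 ± 0.10 in Cx and 1.21 ± 0.12 in M, lay closer to each other than their errors, and with the GC and length correction the M ratio was 0.70 and just short of the call. Of the adrenergic receptors outside the set, Adra2c, the alpha-2C receptor, was called higher in both (1.33 ± 0.10 and 1.31 ± 0.13, from 787, 274, 542 and 169 reads). Adrb3 had 79, 67, 85 and 42 reads and was not called.

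**Figure D2:**
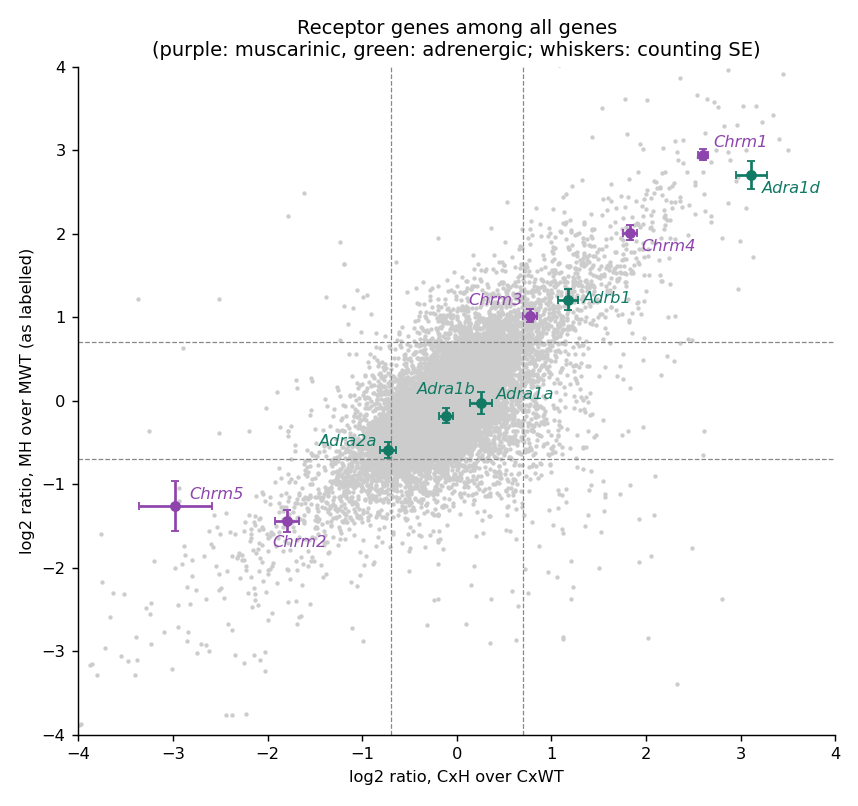
Log2 ratio in Cx (CxH over CxWT, horizontal) against that in M (MH over MWT, vertical) for all genes (grey) and the receptor genes (purple muscarinic, green adrenergic; whiskers are counting standard errors; dashed lines mark 0.7). A few genes beyond 4 in size lie outside the axes. Chrm1 and Adra1d lie at the upper right, Chrm2 and Chrm5 at the lower left, and Chrm5 lies furthest from equal values, at -2.98 and -1.26.

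Because the Ids reads go against the M labels, the other pairings of the libraries are given as values for the same genes. They share libraries with the comparisons above and add no independent evidence. From CxH to MWT, the libraries with the fewest Ids reads, log2 ratios (CxH over MWT) were 3.00 for Chrm1, 0.97 for Chrm3, -2.43 for Chrm5, -1.62 for Chrm2 and 2.13 for Chrm4. Between MH and CxWT, which had the most Ids reads, they were 2.55, 0.82, -1.80, -1.62 and 1.71 (MH over CxWT) in the same order. Adra1d had 2.98 and 2.84, Adrb1 1.55 and 0.83, Adra2a -0.33 and -0.99, Adra1b 0.36 and -0.65, and Adra1a 0.27 and -0.044 in these pairings.

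Few of the receptor genes were called between CxH and MH or between CxWT and MWT, pairs that the labels, though not the area markers, separate by area. From CxH to MH none of the 10 was called higher in CxH, where 2.43% of all genes were, and Chrm5 was called lower in CxH, where 1.06% of all genes were, with a log2 ratio of -1.17 ± 0.44 from 16 and 35 reads. The call was lost with a filter of 100 reads and with an assumed variation of 0.2 between pools. Between CxWT and MWT none was called, against 5.43% of all genes higher and 2.11% lower in CxWT. Chrm5 had 0.54 ± 0.23 between CxWT and MWT, not called. Adra1b had 0.54 ± 0.081 between CxH and MH and 0.48 ± 0.085 between CxWT and MWT. Chrm1, a gene of cortex and hippocampus, had 0.050 and 0.40. Chrm4 had 0.12, which turned to -0.053 with the GC and length correction, and 0.30. Regardless of sign, the median over the 10 genes was 0.267 on the log2 scale between CxH and MH and 0.336 between CxWT and MWT, against 0.202 and 0.238 over all genes.

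The difference between the Cx ratio and the M ratio carries the counting error of 4 libraries and could not be tested for lack of replicates. It was -1.72 ± 0.49 for Chrm5, -0.35 ± 0.080 for Chrm1 and -0.25 ± 0.11 for Chrm3, whose 95% counting limits excluded 0. For the other 7 genes the limits held 0, with the largest values at 0.41 ± 0.23 for Adra1d and -0.35 ± 0.19 for Chrm2.

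Ratios of reads within a library need no scaling. Chrm1 had 39.8 reads for each Chrm2 read in CxH and 34.0 in MH, but 1.89 in CxWT and 1.62 in MWT. Chrm4 over Chrm2, both Gi-coupled, was 10.8, 0.874, 8.79 and 0.803, so Chrm4 had more reads than Chrm2 in CxH and MH and fewer in CxWT and MWT. Adra1d over Adra1b was 1.09, 0.117, 1.31 and 0.178, and Adrb1 over Adra2a was 1.42, 0.378, 1.34 and 0.384. Chrm1 over Chrm4 differed less, at 3.69, 2.17, 3.87 and 2.02. As a share of muscarinic reads Chrm1 made 67.6% in CxH (exact Clopper-Pearson interval 66.6 to 68.5) and 67.2% in MH, but 36.3% (34.5 to 38.2) in CxWT and 33.8% in MWT. The share of Chrm4 stayed between 16.7% and 18.3% in all 4 libraries, while that of Chrm2 was 1.70% and 1.98% in CxH and MH and 19.2% and 20.8% in CxWT and MWT. Adra1d made 42.7% and 45.8% of alpha-1 reads in CxH and MH and 7.89% and 10.6% in CxWT and MWT.

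To compare genes, RPM were divided by the length of the longest protein-coding transcript of GENCODE vM1. Per kb the order in CxH was Chrm1 (26.7), Chrm4 (16.4), Chrm3 (15.6), Chrm2 (0.741) and Chrm5 (0.238). MH had the same genes at the ends, with Chrm3 (16.2) before Chrm4 (15.1), and in both libraries the intervals of these neighbours overlapped. In CxWT and MWT Chrm3 led (9.16 and 7.98 RPM per kb), followed by Chrm4 (4.61 and 3.76) and Chrm1 (4.41 and 3.35), and Chrm4 and Chrm1 overlapped in both. Chrm2 (2.57 and 2.28) and Chrm5 (1.87 and 1.29) closed the order. Summed over the 5 genes the muscarinic level per kb was 59.7, 22.6, 58.5 and 18.7. The models of Chrm3 and Chrm5 hold 1 exon of 1.949 and 1.746 kb, near coding length, so their levels per kb may be set too high against the others.

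Among the adrenergic genes Adra1d led per kb in CxH and MH (11.8 and 9.72), followed by Adrb1 (7.29 and 5.75), Adra1b (6.14 and 4.23), Adra2a (3.37 and 2.82) and Adra1a (2.24 and 1.82), with no overlap between neighbours. In CxWT and MWT the order was Adra1b (6.65 and 4.78), Adra2a (5.60 and 4.24), Adrb1 (3.22 and 2.48), Adra1a (1.88 and 1.86) and Adra1d (1.36 and 1.49). Among these 5 genes Adra1d was thus first in 2 libraries and last in the other two by this length. Adra1a and Adra1d overlapped in CxWT and MWT, as did Adra1b and Adra2a in MWT. The adrenergic sum per kb was 30.8, 18.7, 24.3 and 14.8. Adra1a has the most exons in its model, and with the union of its exons its level per kb was 1.10, 0.920, 0.892 and 0.910, last of the 5 in every library.

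**Figure D3:**
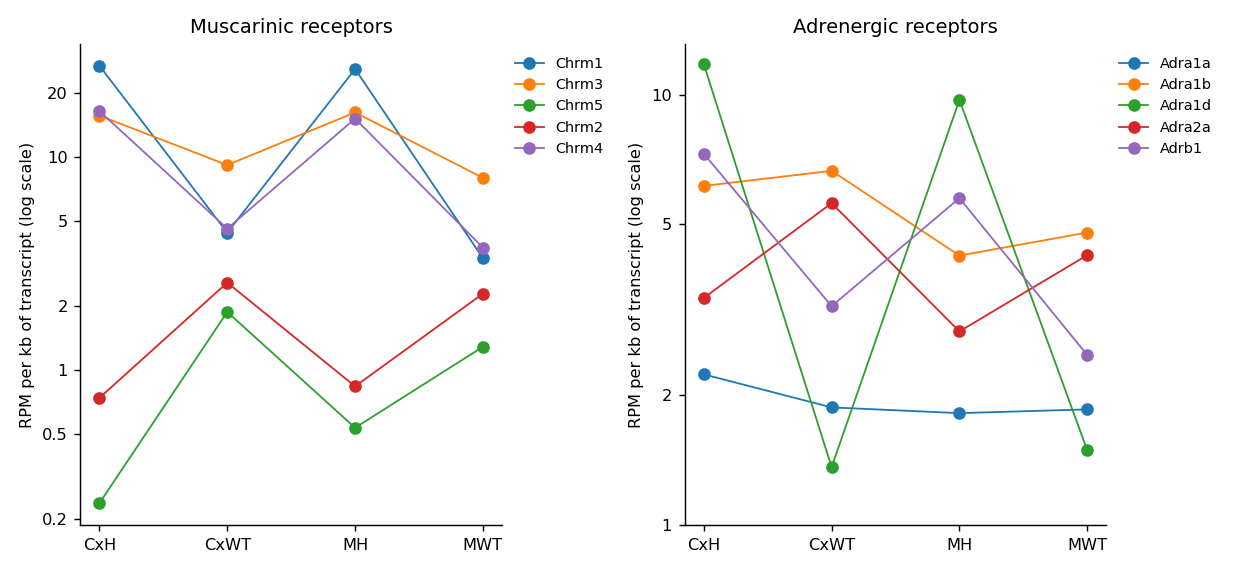
Level per kb of transcript of each receptor gene in the 4 libraries (RPM per kb, log axis; lines join the values of a gene and mark no trend). Chrm1 stands at 26.7 and 25.8 in CxH and MH and at 4.41 and 3.35 in CxWT and MWT, and of the 5 adrenergic genes plotted Adra1d is the highest in CxH and MH and the lowest in CxWT and MWT by this length, while with the union of exons Adra1a is the lowest there.

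The genes that make, remove and answer these transmitters were taken as a list of 66, of which 59 were present. In Cx 15 were called higher and 13 lower, beside 9.46% and 11.5% of all genes, and in M 14 and 14, beside 12.3% and 12.7%. At a log2 threshold of 1 these were 8 higher and 12 lower in Cx, where 691 and 710 of all 12700 genes were, and 8 and 12 in M, where 869 and 773 were. Counts of the branches that follow are small, and some lie at or under these shares. None of the 59 was called between CxH and MH, where 2.43% of all genes were called higher and 1.06% lower in CxH. Between CxWT and MWT 1 was called, Gnaz, an inhibitory G protein subunit, which was higher in CxWT. There 5.43% of all genes were called higher and 2.11% lower in CxWT. The branches differed in direction. Of 5 genes of acetylcholine handling 4 were called lower in Cx and 3 in M, with median log2 ratios of -1.47 and -1.16. They were Chat, which makes acetylcholine (-1.47 ± 0.15 and -1.60 ± 0.17), the choline transporter Slc5a7 (-1.90 and -2.19), Ache, which breaks acetylcholine down (-1.61 and -1.16), and in Cx alone by the call Bche (-0.94 and -0.40). Of 8 genes of noradrenaline handling 5 were called lower in Cx and 6 in M, with medians of -1.95 and -2.18. The monoamine synthesis genes Th (-2.85 and -2.77) and Ddc (-3.09 and -2.77) and the vesicle transporter Slc18a2 (-4.22 and -3.38) are shared with dopamine neurons. Dbh, which makes noradrenaline from dopamine, had 13, 107, 14 and 82 reads, and Slc6a2, the noradrenaline transporter, was not analysed here. Pnmt, the gene called higher in Cx, had 17 and 3 reads.

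Downstream of Gq, 5 of 9 genes were called higher and 1 lower in Cx, and 4 and 1 in M. Among those higher in both were the inositol trisphosphate receptor Itpr1 (1.52 and 1.47), the protein kinase C gene Prkcb (1.57 and 1.37), and the phospholipase Plcb1 (0.83 and 0.83). Plcb4, another phospholipase of this branch, was lower (-1.64 and -1.04). Of the M-current channel genes, Kcnq5 was called higher in both (1.52 and 1.40), and Kcnq3 (0.45 and 0.92) in M. Of 8 Gi and Go genes 1 was called lower in both, the potassium channel Kcnj5 (-3.39 and -2.83), and none was higher in Cx, while Gnaz (0.86) and the potassium channel Kcnj9 (0.79) were called higher in M. The 13 genes of Gs and adenylate cyclase split, with 4 higher and 2 lower in Cx and 3 and 3 in M. Adcy1, a cyclase stimulated by calcium, was higher (1.44 and 1.74), and Adcy7 lower (-1.47 and -1.39). Of 11 receptor kinases, arrestins and RGS genes, which end receptor signals, 2 were called in Cx and 1 in M, all higher, with Rgs14 at 2.30 and 2.37.

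**Figure D4:**
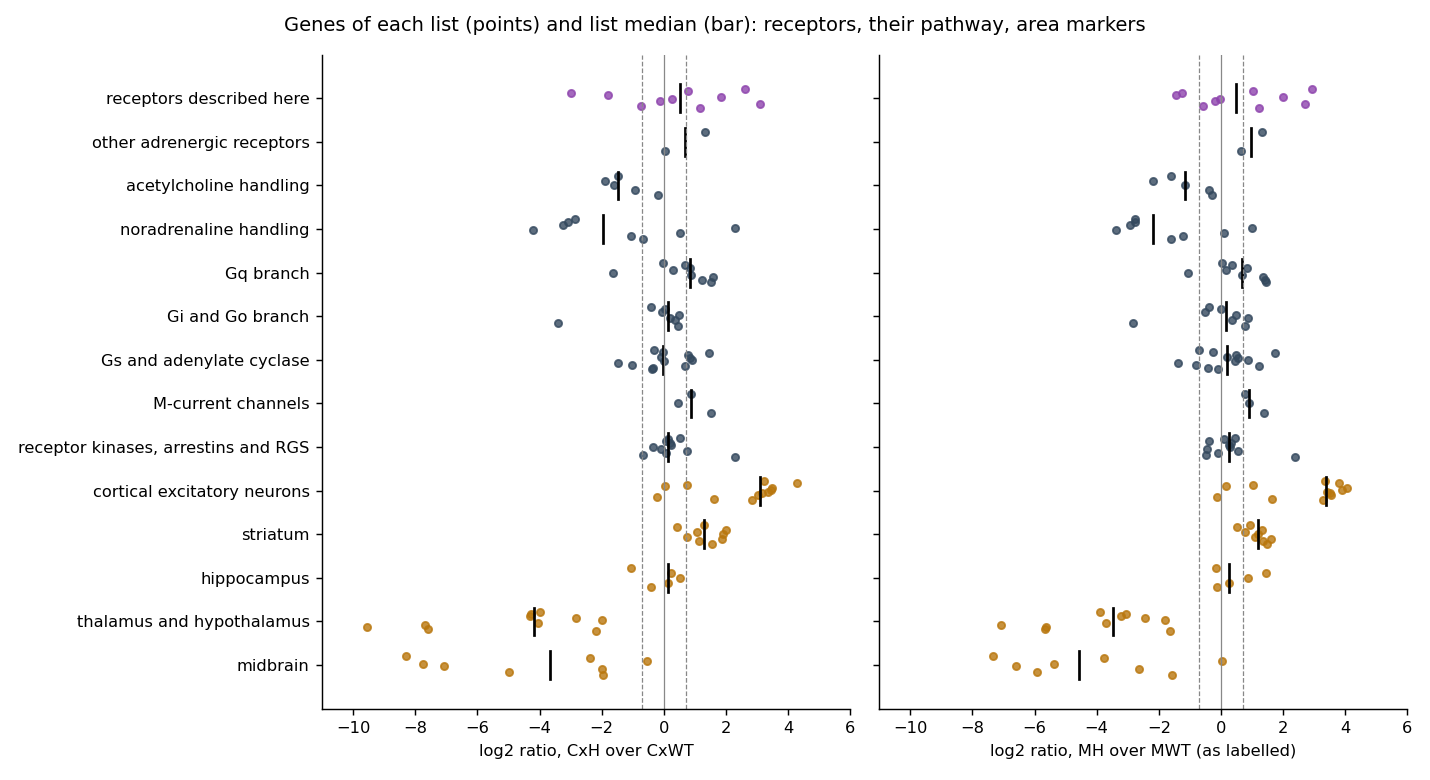
Log2 ratios of the receptor genes (purple), of the pathway genes by list (dark) and of area markers (orange), in Cx on the left and M on the right; each point is a gene, black bars are medians, dashed lines mark 0.7, and a count of 0 was set to 1. Acetylcholine and noradrenaline handling lie to the left with medians of -1.47 and -1.95 in Cx, markers of cortical excitatory neurons and striatum to the right, and those of thalamus, hypothalamus and midbrain furthest to the left.

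The genes closest to each receptor in profile were sought among the 11003 genes that reached 100 reads in each library, as the smallest root mean square difference of centred log2 RPM over the 4 libraries. Chrm1 lay nearest to Tmem121b (0.10), Ankrd33b and Icam5, the last an adhesion molecule of telencephalic neurons. With a minimum of 20 reads all 3 of its nearest genes changed, with Prdm8 the closest (0.058), and so did 2 of the 3 nearest of Chrm5. Chrm4 lay nearest to Baiap2 (0.026), Zfp831 and Dlgap2, Chrm3 to Arhgap32 (0.026) and Rgs9, and Adrb1 to Snph (0.014), Cx3cl1 and Crip2. Adra1d lay nearest to Rasl10a (0.074), Igfbp6 and Ddn, which encodes the dendritic protein dendrin. Chrm2 was closest to Mpp7 (0.038), Amotl1 and Grb10. Chrm5 had no near neighbour, with Gpr101 at 0.172, Prlr and Lhfpl3 as its closest. Adra2a lay nearest to 6430571L13Rik (0.018), Maged2 and Nacc2, Adra1a had Rpp25l (0.014) and Rnf41 among its nearest, and Adra1b lay nearest to Ucp2 (0.024), Pigt and Rtl8b. With 4 libraries per profile, small differences are common and carry no statement on shared control.

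Ratios between libraries moved with GC content across all genes. Over 10706 genes that reached 100 reads in each library and have a known GC content, Spearman's rho between GC content of the transcript and log2 ratio came to 0.461 for Cx and 0.486 for M, a description across genes that share their libraries. It was 0.582 between CxH and MH, 0.629 between CxWT and MWT, 0.686 between CxH and MWT and 0.163 between MH and CxWT. Chrm2 had the lowest GC content of the 10 genes, 41.6%, and Adra1d the highest, 65.4%. Genes within 1 point of the GC content of Chrm2 lay around a median of -0.43 in Cx, with their 5th and 95th percentiles at -1.04 and 0.46, and Chrm2 lay below that range at -1.80. Those like Adra1d, 27 genes, had a median of 0.43 and a 95th percentile of 1.95, below Adra1d at 3.11. Chrm1 and Chrm4 lay above and Chrm5 below these percentiles for their own GC content in both comparisons. Chrm3 lay inside its range in Cx (0.77 with an upper end of 0.82), and Adrb1 inside in both (1.18 with 1.29, and 1.21 with 1.62). Adra2a lay below in both, at -0.73 with a lower end of -0.70 in Cx and -0.59 with -0.53 in M.

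**Figure D5:**
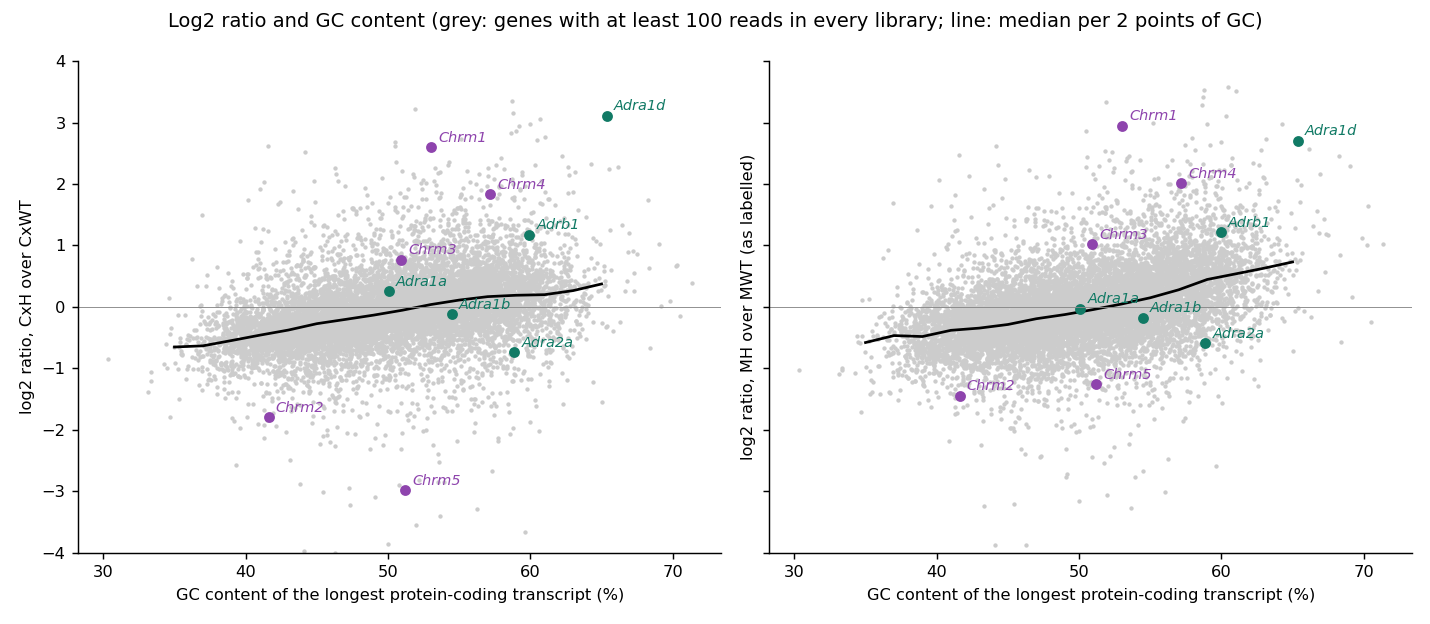
Log2 ratio against GC content of the longest protein-coding transcript (%), for Cx on the left and M on the right; grey points are genes that reached 100 reads in each library, the line is the median per 2 points of GC, and coloured points are the receptor genes. The median line climbs with GC content, and Chrm1, Chrm4 and Adra1d stand above it and Chrm2, Chrm5 and Adra2a below.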

How the data were processed

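RNA of pooled animals was sequenced by the authors on a SOLiD instrument, 1 library for each of CxH, CxWT, MH and MWT. The authors aligned the reads to mm9 and deposited raw counts of reads aligned to a single gene, and the gene annotation they used is not given in the sources used here. Gene IDs were matched to RefSeq symbols (12690 of 12700) and 12422 to GENCODE vM1 for position, length and GC content. Counts were divided by the aligned reads that the study states per library, of which 56.6% to 61.0% lay on genes, and log2 ratios were taken with a count of 0 set to 1. All 12700 genes were tested with the Poisson likelihood ratio test and thresholds of the authors, in Python 3.11.15 with scipy 1.17.1. The likelihood ratio test and call rule were tested on simulated Poisson counts, with known changes in genes of at least 100 expected reads. Those counts held no variation between pools and no GC trend, and the other steps were not tested this way. Alternatives were column totals, TMM factors (edgeR 4.0.16), DESeq2 1.42.0 size factors, Benjamini-Hochberg adjusted p-values, a filter of 100 reads, a log2 threshold of 1, exact tests with an assumed coefficient of variation of 0.1 or 0.2 between pools, 0.5 added to every count, and a GC and length correction. All 10 receptor genes are named, with genes of pathway and marker lists and the 3 nearest profiles of each receptor, except a few that are not reported here. The receptors and lists were chosen with earlier results of these data known.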

Additional observations from a re-analysis of the deposited data

Results flagged for a closer look

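For some receptor genes the ratio under the same contrast had opposite signs in the groups compared, and with 1 library per group none of these differences was tested. The labels, though not the area markers, separate CxH from MH and CxWT from MWT by area. Chrm5 was lower in CxH than in MH (-1.17) and higher in CxWT than in MWT (0.54). Its log2 ratios, CxH over MH and CxWT over MWT, thus differed by -1.716. The same contrast gave -0.049 and 0.20 for Chrm3, a difference of -0.2486, and -0.18 and 0.17 for Chrm2, a difference of -0.3522. With the GC and length correction both Chrm2 ratios were above 0 (0.087 and 0.37). Adra1d had 0.28 for CxH over MH and -0.13 for CxWT over MWT, which differed by 0.4066. With the GC and length correction these ratios were 0.037 and -0.80. For Adra1a the log2 ratios were 0.25 for CxH over CxWT and -0.029 for MH over MWT, a difference of 0.2838, and with TMM factors both were above 0 (0.030 in M). Ids itself had -1.39 in Cx and 1.24 in M. It had -1.44 for CxH over MH and 1.19 for CxWT over MWT, and both contrasts differed by -2.631.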

How the results depend on the processing

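Each comparison had 100 ratios of receptor genes under alternatives. Sign and call were kept for 94 in Cx, 95 in M, 96 between CxH and MH and 95 between CxWT and MWT. The read filter, the threshold of 1, the adjusted p and the exact tests leave the log2 ratio unchanged, so no sign could turn under them. The filter, the threshold and the adjusted p can only remove calls, so an uncalled gene kept its result in advance. These counts therefore overstate how stable the ratios are. The 1 call between CxH and MH (Chrm5) went to 0 with the filter of 100 reads and with a variation of 0.2, and the 1 pathway gene called between CxWT and MWT went to 0 at a log2 threshold of 1. Signs turned as follows. Adra1a in M was 0.030 with TMM and 0.031 with DESeq2 factors, and between CxWT and MWT it was -0.076 with column totals, -0.034 with TMM and -0.033 with DESeq2 factors. With the GC and length correction Chrm2 (0.087) and Chrm4 (-0.053) turned between CxH and MH, and Adra2a (from 0.40 to -0.023) and Adrb1 (from 0.38 to -0.048) between CxWT and MWT. The same correction moved Adra1d from 2.70 to 1.92 in M, from 0.28 to 0.037 between CxH and MH and from -0.13 to -0.80 between CxWT and MWT. The last is past 0.7 in size but not called, since the p of the uncorrected counts was kept. Calls lost were Adra2a and Chrm3 in Cx at a threshold of 1 and at a variation of 0.2, Adra2a in Cx with TMM (-0.64) and DESeq2 factors (-0.64), Chrm5 in M with the read filter, and Adrb1 in M with the GC and length correction (0.70), which gained Adra2a in M (-1.14). Over all genes, a threshold of 1 left 691 higher and 710 lower in Cx (1201 and 1457 in the report), 869 and 773 in M (1556 and 1614), 109 and 34 between CxH and MH (309 and 135) and 194 and 101 between CxWT and MWT (690 and 268). A variation of 0.2 gave 881 and 983, 1164 and 1083, 151 and 40, and 359 and 128 in the same order, and the GC and length correction 961 and 1156, 1062 and 1097, 179 and 112, and 234 and 147. With TMM factors the split was 1447 to 1135 for Cx and 1774 to 1386 for M, and with column totals it was 480 to 390 between CxWT and MWT. The causes were not tested. Leaving out a library was not possible with 1 per group. No paired analysis was possible because RNA was pooled with 1 library per group, although both areas were dissected from each brain. Few reads limit Chrm5 (16 to 110) and Adra1d in CxWT and MWT (87 and 82).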
